A study of Mus musculus with 6 samples.

Results

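Transcripts of 10 genes of the Piwi and piRNA system were followed in mouse oocytes with and without normal Marf1. They are the Piwi genes Piwil1, Piwil2 and Piwil4, the Tudor-domain genes Tdrd1 and Tdrd9, the helicase genes Ddx4 and Mov10l1, and Mael, Gtsf1 and Asz1. The genes were chosen by name as Piwi proteins and piRNA factors, with earlier results of these data known. Each was read by 1 probe set that the platform annotation assigns to it alone. They are 10 of 19938 genes measured in this way. Marf1-mutant oocytes (Marf1 ENU/ENU), in which both copies of the gene carry a chemically induced mutation, were set against wild type (Marf1+/+). The females of both groups were of mixed strain, C57BL/6J with C3HeB/FeJ, were 23 days old at collection and had been primed with 5 IU of eCG for 46 hours. Fully-grown oocytes, at the germinal-vesicle stage that the labels call transcriptionally silent, were freed of cumulus cells, and each of 3 samples per genotype was hybridised to 1 array. Neither the number of oocytes per sample nor whether samples of a genotype came from separate females is stated in the labels. The p-values therefore describe only how these samples spread, which may be technical.

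Piwi proteins are Argonaute relatives that carry small piRNAs of the germ line and use them to recognise transposon transcripts. Ddx4 and Tudor-domain proteins gather Piwi proteins in germ granules, where piRNAs are made and amplified, and part of the system directs DNA methylation of transposons in fetal male germ cells. In mice the pathway is best known from the testis, where loss of most of these genes arrests spermatogenesis. Mouse oocytes also make piRNAs, but silence transposons in good part through Dicer and endogenous small interfering RNAs.

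Of the 10 genes, Piwil2 was higher and Tdrd9 was lower in Marf1-mutant oocytes, and 8 did not pass the test. Over all 35556 probe sets 7.78% passed it, 4.78% higher and 3.0% lower, and 2 of 10 genes are too few to set the members apart from that background. The test was limma on the deposited log2 values, with Benjamini-Hochberg adjustment over all probe sets and an adjusted p of 0.05 as the threshold. The median log2 difference, mutant minus wild type, was -0.13 over the 10 genes and -0.02 over all probe sets, and 8 of the 10 lay below 0, as did 52.4% of all probe sets. Mael and Asz1, at -0.01 and -0.02, are among the 8. The count was 6 with quantile normalization, cyclic loess normalization and array weights and 6 to 9 with 1 array left out. Among probe sets at or above the median level, 9 of them members, the median was -0.09. Of these probe sets 59.8% lay below 0, as did 7 of the 9 members. With 1 row per gene 56.1% of all genes lay below 0. In that fit 1708 of the 19938 genes were higher and 1514 lower, larger shares than over all probe sets. In the limma fit on all probe sets 4 of the genes were lower at unadjusted p under 0.05, and the 1 higher was Piwil2. Of all probe sets 10.7% were lower at that threshold. That share takes in dim and unnamed probe sets, and the count of 4 was not tested against it. All values are log2 RMA expression. They are compared between arrays for 1 gene at a time, since probe sets differ in brightness for reasons other than transcript number.

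**Figure D1:**
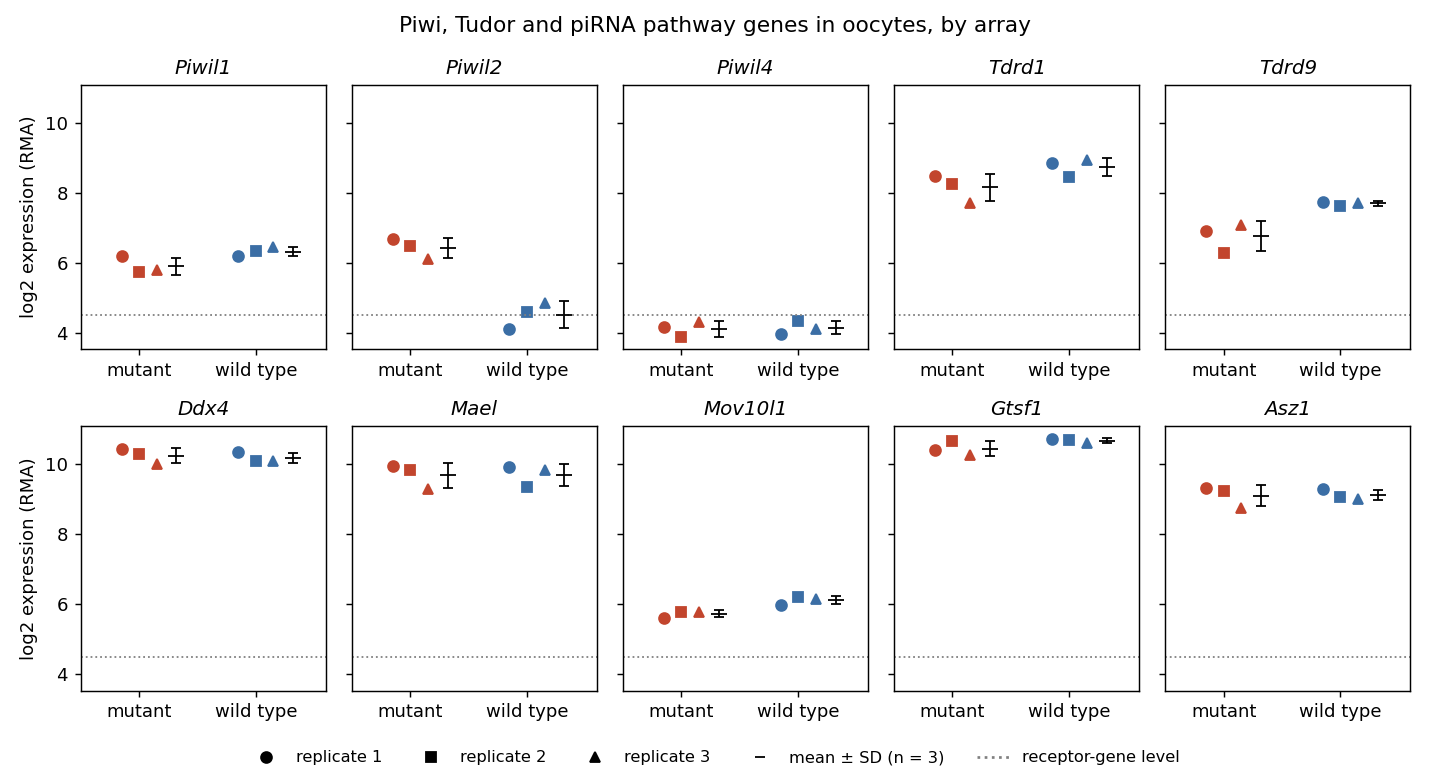
Log2 expression (RMA) of each of the 10 genes on every array, Marf1 mutant on the left and wild type on the right of each panel. Symbols mark replicates, black bars show mean ± SD (n = 3), and the dotted line is the receptor-gene level of 4.505. Piwil2 lies at 6.12 to 6.67 in the mutant and at 4.11 to 4.87 in wild type, and Piwil4 stays below the line on average in both.

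Marf1 itself was at 5.98, 6.40 and 6.16 on the mutant arrays and at 9.21, 9.16 and 9.31 on the wild-type arrays. This is a log2 fold change of -3.05 (SE 0.15, limma adjusted p = 1.0e-04). Where its probes lie relative to the mutation is not stated, and the level is a partial check of the labels. Mutant replicate 3 stood apart from the rest, with r of 0.970 to 0.973 with the other mutant arrays, against 0.984 to 0.985 among wild-type arrays, and with the smallest spread over probe sets (SD 2.04). It gave the lowest of the 6 values for all 4 of the genes with a mean level of at least 9 (Ddx4, Mael, Gtsf1 and Asz1). The same held for 54.8% of the 2287 probe sets at that level.

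Markers of the oocyte and of other ovarian cells were checked on the same arrays. All 14 oocyte markers measured, among them Gdf9, Bmp15 and Zp3, stayed below the threshold for a call, and their mean level per array was 9.93 to 10.2 in the mutant and 10.1 to 10.3 in wild type. Of 15 cumulus and granulosa markers, 2 were higher in the mutant and 1 was lower, and 7 lay below the receptor-gene level in both genotypes. Over all probe sets 4.78% were higher and 3.0% lower, and the marker lists are too short to set apart from those shares. The list's mean level per array was 4.53 to 4.88 in the mutant and 4.58 to 4.70 in wild type. Fshr averaged 4.24 in the mutant and 4.04 in wild type, and Amh averaged 4.07 in the mutant and 4.42 in wild type. Kitl and Nr5a2 were higher, by 1.94 and 1.46 on the log2 scale, and Ptgs2 was lower (-1.0). Nr5a2 averaged 10.17 in the mutant and 8.71 in wild type, far above the mean level of its list, which it raises. Of 8 theca and stroma markers only Pdgfra passed (0.67), and of 8 blood, immune and endothelial markers only Pecam1 (-1.07). Of the 6 fits that left out 1 array, Kitl and Nr5a2 passed in 6, Pecam1 in 4, Ptgs2 in 1 and Pdgfra in 0. Pecam1 averaged 6.20 in the mutant and 7.27 in wild type, also above the mean level of its list. The mean level per array of the theca and stroma list was 4.10 to 4.38 in the mutant and 4.12 to 4.19 in wild type, and that of the blood list was 4.30 to 4.38 in the mutant and 4.29 to 4.54 in wild type. The part of these markers in the results below was not tested. An array cannot tell a sample with fewer cells of a type from one with less RNA in each.

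Piwil2 (probe set 10421325), the Piwi protein that in mouse fetal male germ cells starts piRNA amplification, had the largest difference of the 10 genes. Its levels were 6.67, 6.47 and 6.12 in mutant replicates 1 to 3 and 4.11, 4.61 and 4.87 in wild-type replicates 1 to 3. Every mutant value lay above every wild-type value, as in 10.9% of all probe sets, and the nearest values of the genotypes were more than 1 log2 unit apart. That gave a log2 fold change of 1.89 (SE 0.23, 95% interval 1.35 to 2.43, 3.71-fold higher, limma adjusted p = 0.00286). The wild-type mean of 4.53 was close to 4.505, the 95th percentile of the levels of 1190 olfactory and vomeronasal receptor genes, called the receptor-gene level here and used as a mark of dim signal. The rise may thus be understated. Piwil2 passed in each of the 6 fits that left out 1 array, with log2 fold changes of 1.68 to 2.06 and adjusted p of 0.00428 to 0.0156. Without mutant replicate 3 the log2 fold change was 2.04.

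The other Piwi genes did not pass the test. Piwil1 (probe set 10525961), which in mice binds the pachytene piRNAs of the testis, was at 6.19, 5.74 and 5.80 in the mutant and at 6.19, 6.34 and 6.45 in wild type. The highest mutant value equalled the lowest wild-type value. Its log2 difference was -0.42 (95% interval -0.81 to -0.03), with a limma adjusted p of 0.219. Piwil4 (probe set 10590933), the nuclear Piwi protein of mouse prospermatogonia, was at 4.17, 3.88 and 4.31 in the mutant and at 3.98, 4.35 and 4.12 in wild type, below the receptor-gene level on average in both. Its log2 difference was -0.03 (95% interval -0.43 to 0.37, limma adjusted p = 0.962). At that brightness a difference in Piwil4 could have gone unseen.

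Because an offset of a whole array cancels in a difference between 2 probe sets of it, Piwil2 was also set against Piwil1 array by array. Piwil2 minus Piwil1 was 0.48, 0.73 and 0.32 in the mutant and -2.08, -1.73 and -1.58 in wild type (means 0.51 ± 0.21 and -1.80 ± 0.26, SD, n = 3 each). The shift between genotypes was 2.31 log2 units. Against Piwil4 it was 1.92, and against Ddx4, whose own log2 difference was small, it was 1.83. None of these 3 differences overlapped between genotypes, and each had an exact two-sided permutation p of 0.1, the smallest that 3 against 3 arrays can give. Such a shift shows unequal change of the 2 probe sets, not which of them moved. Piwil2 had already been seen to differ, so these differences are no separate test of it. A narrower spread of a whole array, as in mutant replicate 3, does not cancel in this way.

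Tdrd9 (probe set 10398759) encodes a helicase with a Tudor domain that acts with Piwil4 in the silencing of transposons in the mouse male germ line. Its levels were 6.92, 6.28 and 7.09 in the mutant and 7.75, 7.63 and 7.71 in wild type. All mutant values lay below all wild-type values, as in 13.8% of all probe sets, and the mutant arrays spread more widely (SD 0.43, against 0.06 in wild type). The log2 fold change was -0.93 (SE 0.22, 95% interval -1.44 to -0.43, limma adjusted p = 0.0421). This call was marginal. The adjusted p was 0.0824 without mutant replicate 1, 0.0610 without mutant replicate 2, and 0.139, 0.104 and 0.135 without wild-type replicates 1, 2 and 3. Without mutant replicate 3 it was 0.0268, with a log2 fold change of -1.10. It was 0.0619 after quantile and 0.117 after cyclic loess normalization.

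**Figure D2:**
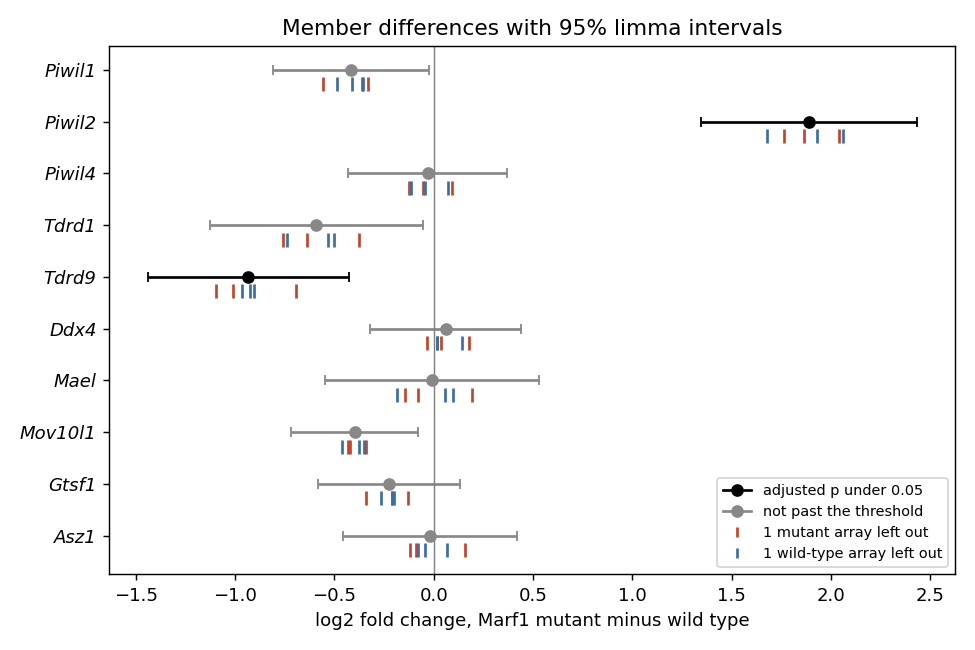
Log2 fold change (x axis, Marf1 mutant minus wild type) of the 10 genes with limma 95% intervals, black where the adjusted p is under 0.05. Ticks under each point give the value with 1 array left out. Piwil2 keeps 1.68 to 2.06 and Tdrd9 -1.10 to -0.69, while the ticks of Piwil4, Ddx4, Mael and Asz1 fall on both sides of 0.

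**Figure D3:**
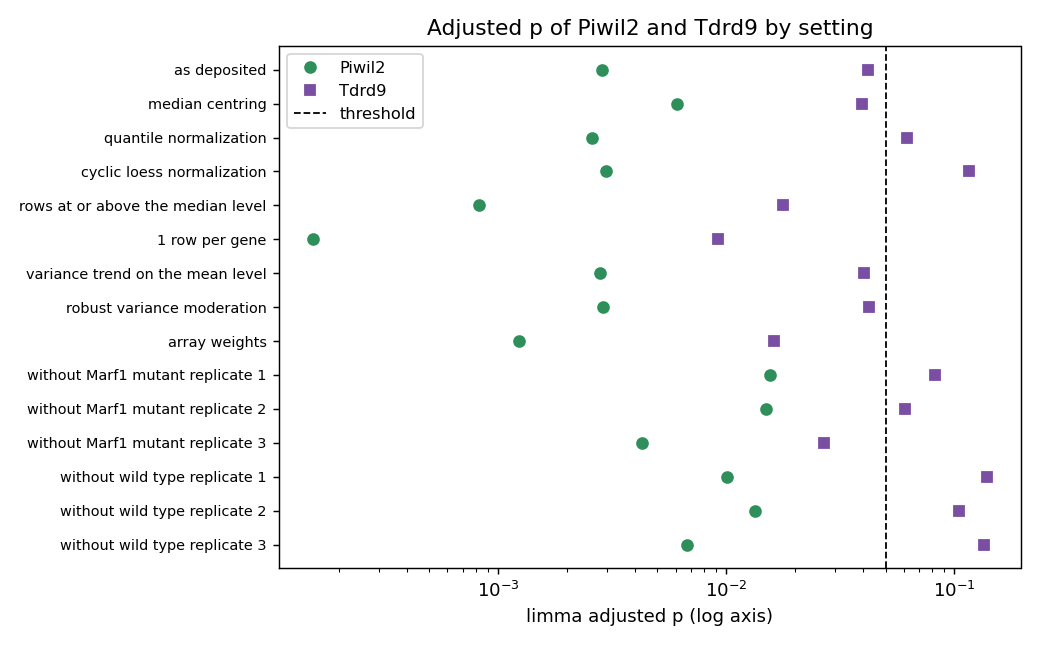
Limma adjusted p (x axis, log scale) of Piwil2 and Tdrd9 as deposited and under 14 alternatives, with the threshold of 0.05 as a dashed line. Piwil2 passes in all 14 and Tdrd9 in 7. The replicate block is not drawn and is not among the 14 here or below. Under it the limma adjusted p was 0.0173 for Piwil2 and 0.0547 for Tdrd9.

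Tdrd1 (probe set 10464171), the Tudor protein that binds methylated Piwil2 in mouse germ granules, was at 8.49, 8.25 and 7.72 in the mutant and at 8.86, 8.45 and 8.92 in wild type. Mutant replicate 1 lay just above wild-type replicate 2, so the genotypes overlapped. The log2 difference was -0.59 (95% interval -1.13 to -0.05, limma adjusted p = 0.204). Mutant replicate 3 was the lowest array, and without it the difference was -0.37 (adjusted p = 0.316). Tdrd9 minus Tdrd1 within arrays was -1.57, -1.97 and -0.63 in the mutant and -1.11, -0.82 and -1.21 in wild type. These overlapped, and the shift of -0.34 between genotypes was within the spread (exact two-sided permutation p = 0.5). The shift of Tdrd9 was -0.99 against Ddx4 and -0.92 against Mael. In both the mutant values lay below all wild-type values (exact two-sided permutation p = 0.1, the smallest possible here). Against Mael the nearest values were -2.18 (mutant replicate 3) and -2.15 (wild-type replicate 1). Tdrd9 had already been seen to differ, so these differences are no separate test of it.

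Mov10l1 (probe set 10426118), the RNA helicase that feeds piRNA precursors into processing, was at 5.61, 5.77 and 5.79 in the mutant and at 5.99, 6.21 and 6.16 in wild type. The genotypes did not overlap, but the difference was small. It came to -0.40 log2 units (95% interval -0.72 to -0.08, limma adjusted p = 0.149). With Tdrd9 it made 2 of the 10 genes that lay wholly lower in the mutant, against the 13.8% of probe sets given above.

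Ddx4, Gtsf1, Mael and Asz1 were far above the receptor-gene level in both genotypes and did not pass. Ddx4 (probe set 10412155), the Vasa helicase that marks germ cells and germ granules, was at 10.41, 10.27 and 9.99 in the mutant and at 10.33, 10.08 and 10.08 in wild type. The log2 difference was 0.06, with a 95% interval of -0.32 to 0.44 (limma adjusted p = 0.908). Gtsf1 (probe set 10433145), a zinc-finger partner that in mice helps Piwi proteins cut their targets, was at 10.40, 10.66 and 10.24 in the mutant and at 10.71, 10.69 and 10.58 in wild type. Mutant replicate 2 lay within the wild-type range and the other mutant arrays below it, and the log2 difference was -0.23 (95% interval -0.58 to 0.13, limma adjusted p = 0.517).

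Mael (probe set 10359801), the Maelstrom protein of germ granules, was at 9.94, 9.81 and 9.27 in the mutant and at 9.90, 9.33 and 9.82 in wild type. Asz1 (probe set 10543259), a mitochondrial-surface protein needed in mice for piRNA processing, was at 9.30, 9.24 and 8.74 in the mutant and at 9.28, 9.06 and 8.99 in wild type. Both overlapped between genotypes, with log2 differences of -0.01 for Mael (95% interval -0.55 to 0.53, limma adjusted p = 0.990) and -0.02 for Asz1 (-0.45 to 0.42, adjusted p = 0.981). The sign turned under quantile normalization, cyclic loess normalization and array weights, and without mutant replicate 3, for both genes. No direction is therefore given for either.

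A feature that the choice of genes did not use is the sequence before their start sites. The 250 bases upstream of the annotated starts were taken from RefSeq (GRCm38.p6), where 9 of the 10 members matched, with 12 windows. They were searched for the E-box CACGTG, which reads the same on both strands and is bound by helix-loop-helix factors such as Usf and Max with their partners. It stood in a window of 6 of the 9 members, namely Piwil1, Tdrd1, Tdrd9, Ddx4, Mael and Mov10l1, and in none of Piwil4, Gtsf1 and Asz1. Over all genes with a window it stood in 6.86%, and over all 32851 windows in 6.02%. Among the 14127 windows with at least 8 CpG, the number in the Tdrd9 window, the share was 9.18%. Of the other pathway genes of the list below, 4 of 25 with a window held it. This is a description of letters, chosen with the windows in view and with no test. Oocytes at this stage make little new RNA, and the array data say nothing of which factors bind there.

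The 6 members with an E-box had log2 differences of -0.93 (Tdrd9), -0.59 (Tdrd1), -0.42 (Piwil1), -0.40 (Mov10l1), -0.01 (Mael) and 0.06 (Ddx4). The 3 with a window and no E-box had -0.23 (Gtsf1), -0.03 (Piwil4) and -0.02 (Asz1). The ranges overlap, and whether the motif goes with the difference was not tested. Tdrd9 has 2 copies, starting 165 and 95 bases before its start, and Piwil1 also has 2, at 179 and 154 bases. Ddx4 has 1 at 29 bases. Piwil2 had no window in the table. The whole Tdrd9 window is shown because it belongs to the member that fell, and shorter stretches of the other 5 show the bases around the motif (capitals mark the E-box; each is written 5′ to 3′ in the direction of the gene).
Tdrd9, chr12:111971309-111971558, + strand: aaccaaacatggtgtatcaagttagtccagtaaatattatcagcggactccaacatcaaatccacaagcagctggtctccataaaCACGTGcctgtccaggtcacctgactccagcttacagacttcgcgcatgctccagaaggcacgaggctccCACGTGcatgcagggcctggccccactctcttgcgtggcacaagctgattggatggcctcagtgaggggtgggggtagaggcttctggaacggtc
Piwil1, chr5:128736040-128736124, + strand: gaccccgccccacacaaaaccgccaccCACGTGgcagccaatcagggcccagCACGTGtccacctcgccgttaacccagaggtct
Tdrd1, chr19:56826171-56826230, + strand: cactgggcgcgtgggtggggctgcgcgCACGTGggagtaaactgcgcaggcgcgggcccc
Ddx4, chr13:112652311-112652366, - strand: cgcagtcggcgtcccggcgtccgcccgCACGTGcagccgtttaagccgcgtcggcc
Mael, chr1:166238935-166238994, - strand: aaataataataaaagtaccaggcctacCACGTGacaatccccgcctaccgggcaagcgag
Mov10l1, chr15:88982744-88982780, + strand: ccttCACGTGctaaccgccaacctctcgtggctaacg

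**Figure D4:**
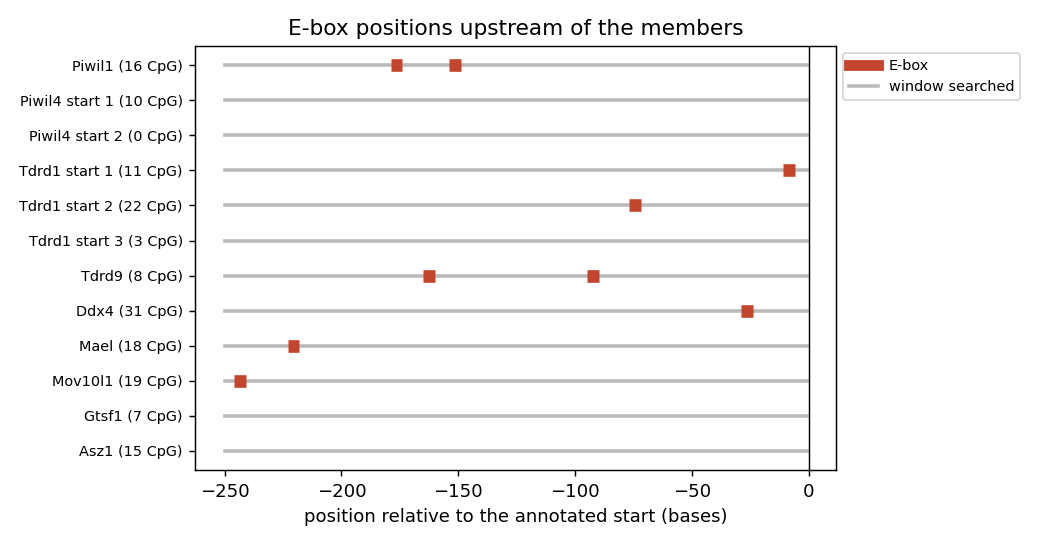
Position of each E-box (red) in the 250 bases before the annotated starts of the members (x axis, bases relative to the start), with the number of CpG in each window. Tdrd1 start 1 and start 2 overlap and hold the same E-box, and Piwil2 is not in the table.

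Other genes of the pathway were taken from a list of 33, of which 29 were measured. Of these, 3 were higher and 2 lower in the mutant, and 24 did not pass, where 4.78% of all probe sets were higher and 3.0% lower. In the fit with 1 row per gene 5 of them were higher and 4 lower, beside 1708 and 1514 of 19938 genes. The list was chosen with earlier results of these data known, so its count is not a neutral comparison with that background. With 3 higher and 2 lower of 29 genes it is also too small to set the list apart. Their median log2 difference was -0.06, against -0.02 over all probe sets and -0.09 over those at or above the median level. The genes are described below by 4 role groups. Expression of Fkbp6, Btbd18, Spocd1 and Dnmt3c was not analysed here.

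Among 10 processing factors and cofactors, 1 was higher and 2 were lower, where 4.78% of all probe sets were higher and 3.0% lower. The group is too small to set apart from those shares. Wdr77, the partner of the methyltransferase Prmt5 that marks Piwi proteins for Tudor binding, was at 7.41, 8.03 and 7.0 in the mutant and at 4.73, 4.28 and 4.27 in wild type. The genotypes stood more than 2 log2 units apart. The difference was a log2 fold change of 3.05 (SE 0.27, limma adjusted p = 6.82e-04), and Wdr77 passed in all 14 alternatives. Its wild-type mean of 4.43 lay below the receptor-gene level, so the rise may be larger than measured. A further probe set that the annotation gives to both Wdr77 and Ovgp1 stayed at 3.19 to 3.63 in the mutant and 3.37 to 3.67 in wild type. Prmt5 itself, looked up after its partner's value was seen, had a log2 difference of -0.41 (adjusted p = 0.275).

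Gtsf1l, a relative of Gtsf1, was at 3.86, 3.49 and 4.37 in the mutant and at 5.38, 4.99 and 5.97 in wild type. The mutant mean of 3.91 lay below the receptor-gene level. The log2 fold change was -1.54 (SE 0.30, limma adjusted p = 0.0224), and the call was lost without mutant replicates 1 and 2 (adjusted p = 0.0726 and 0.0667) and without wild-type replicates 1 and 3 (0.0747 and 0.0685). Kif17, a kinesin whose testis form in mice has been linked to Piwil1, was at 4.76, 4.63 and 4.79 in the mutant and at 5.65, 5.37 and 5.56 in wild type. The log2 fold change was -0.80 (SE 0.14, limma adjusted p = 0.0143), and the call was lost without mutant replicate 2 (0.0546) and without wild-type replicates 1 and 3 (0.0677 and 0.0675). Gpat2, an acyltransferase of the mitochondrial surface, did not pass, with a log2 difference of 0.65 (limma adjusted p = 0.0617). The wild-type mean of Gpat2, 4.11, lay below the receptor-gene level. Pld6, the mitochondrial nuclease that cuts piRNA precursors, did not pass either, with a log2 difference of 0.61 (limma adjusted p = 0.0939).

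Of 7 measured genes listed under nuclear silencing, 2 were higher and none was lower by limma (1 was lower at unadjusted p under 0.05). Over all probe sets 4.78% were higher, 3.0% lower and 10.7% lower at unadjusted p under 0.05, so 7 genes are too few to set apart. The heading is that of the list, and where Tex19.1 and Tex19.2 act was not tested. Tex19.2, a germline gene of transposon control in mice, was at 7.07, 7.02 and 6.79 in the mutant and at 4.68, 5.00 and 4.02 in wild type. Its log2 fold change was 2.39 (SE 0.25, limma adjusted p = 0.00142), and it passed in all 14 alternatives. The wild-type mean of Tex19.2, 4.57, was close to the receptor-gene level of 4.505, so the rise may be larger than measured. Its paralogue Tex19.1 was at 8.04, 8.06 and 8.0 in the mutant and at 7.53, 7.21 and 7.55 in wild type, with a log2 fold change of 0.60 (SE 0.15, limma adjusted p = 0.0484). Tex19.1 lost the call when any 1 of the 6 arrays was left out, with adjusted p of 0.127, 0.127 and 0.0665 without mutant replicates 1 to 3 and 0.113, 0.148 and 0.107 without wild-type replicates 1 to 3. Whether the probe sets of these related genes read each other's transcript was not tested. Morc1 and Nanos2 had log2 differences of -0.44 (adjusted p = 0.144) and -0.19 (adjusted p = 0.709).

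None of the 10 other Tudor-domain genes passed limma's test, while 3 were lower at unadjusted p under 0.05 (10.7% of all probe sets were). The median log2 difference of the group was -0.34, against -0.02 over all probe sets and -0.09 over those at or above the median level. The group was not tested as a set. Tdrd5, which in mice holds germ granules together, was at 8.10, 8.01 and 7.33 in the mutant and at 8.65, 8.53 and 8.69 in wild type. Its log2 difference was -0.81 (95% interval -1.31 to -0.31, adjusted p = 0.0687). Tdrd7 had a log2 difference of -0.54 (adjusted p = 0.0744). Tdrd5 passed in 4 of the 14 alternatives and Tdrd7 in 3, and neither passed with the replicate block (limma adjusted p = 0.107 and 0.154). Mutant replicate 3 was the lowest of the 6 arrays for 6 of the 10. It was so for 20.3% of all probe sets and for 54.8% of those with a mean level of at least 9. Of the transcription factors of piRNA genes, Mybl1 had a log2 difference of 0.27 (adjusted p = 0.622) and Tcfl5 of 0.24 (adjusted p = 0.415).

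**Figure D5:**
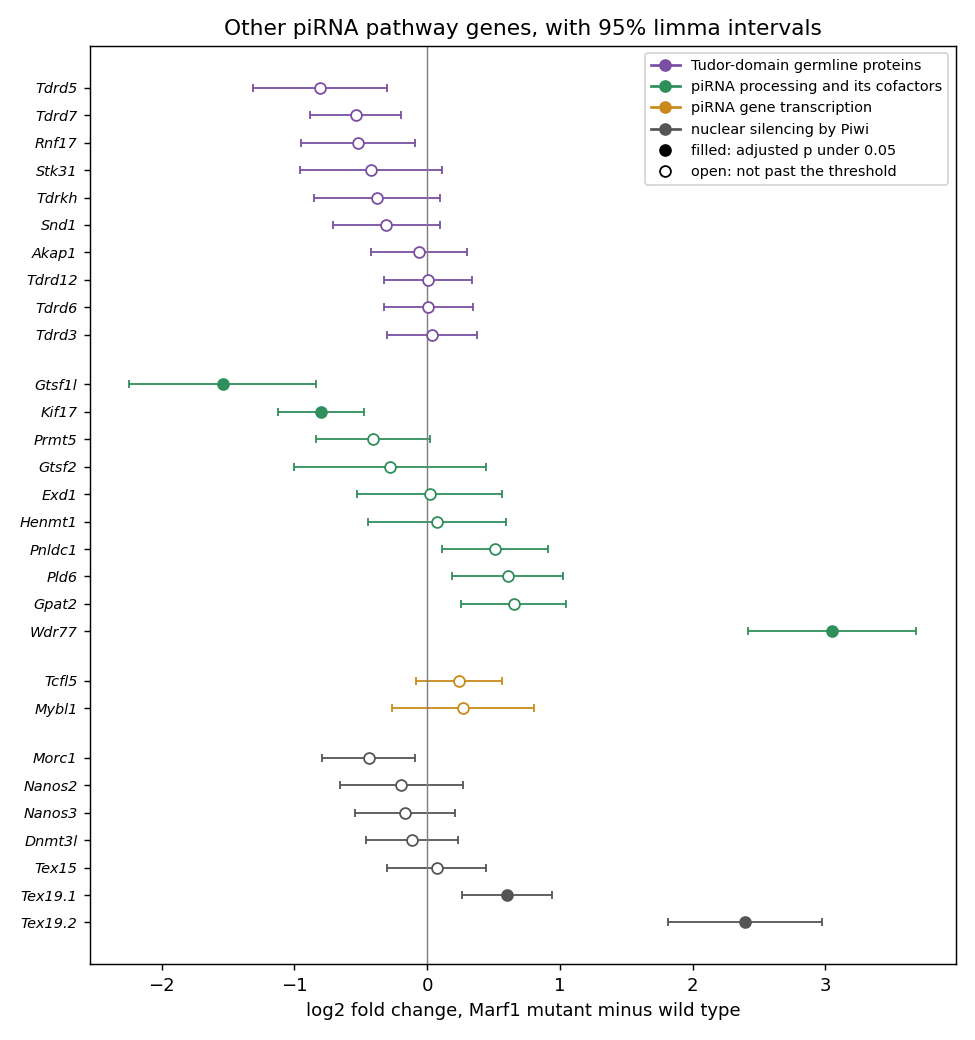
Log2 fold change (x axis, Marf1 mutant minus wild type) of the 29 other pathway genes with limma 95% intervals, coloured by role; filled points passed the threshold. Wdr77 (3.05) and Tex19.2 (2.39) stand to the right, Gtsf1l (-1.54) to the left, and the Tudor-domain genes lie between -0.81 and 0.04.

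The genes whose pattern over the 6 arrays was most like that of Piwil2 were Prpf4, Rab11fip2 and Rbbp6, at root mean square distances of 0.11, 0.13 and 0.13 log2 units after each gene was centred on its mean. Prpf4, a splicing factor, was at 8.49, 8.30 and 8.16 in the mutant and at 6.22, 6.49 and 6.75 in wild type. Those most like Tdrd9 were Eftud2, Bank1 and Fam241b, at 0.07, 0.10 and 0.12. Eftud2, also of the spliceosome, was at 7.41, 6.85 and 7.47 in the mutant and at 8.29, 8.07 and 8.14 in wild type. The likeness covers all 19938 genes, rests on 6 arrays and largely follows the genotype difference, so it is given as a description only.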

How the data were processed

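The authors deposited 1 column of log2 expression values per array, with a row for each probe set. Per the submitters' processing notes, the authors' tools were GCOS, Affymetrix Expression Console 1.1 and RMA. RMA is designed to remove background, equalise the distributions of arrays and summarise the probes of a set, so a change in total RNA per oocyte cannot be seen. The deposited columns still differed, with medians from 4.56 (mutant replicate 1) to 4.76 (mutant replicate 3). Their SD over probe sets ran from 2.04 (mutant replicate 3) to 2.20 (mutant replicate 1). RNA was amplified by a whole-transcript method, per the labels' protocols. Genes were named from the platform annotation, only where a row names 1 gene (21789 of 35556 rows). Where a gene has several such rows, that with the highest mean was used, and each member has 1.

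Marf1-mutant and wild-type arrays were tested against each other, two-sided, in limma 3.58.1 (R 4.3.3; lmFit, eBayes) on all rows, with no covariate. Arrays carry no depth, and their number limits the precision. The fit was tested on simulated data. The 10 members, the lists and the rule for named genes were chosen with earlier results of these data known. Named were all members, the pathway genes past the threshold, the 2 with the largest difference among the others of each role group, and the 3 genes most like Piwil2 and Tdrd9. Alternatives were other normalizations, filters, variance settings, array weights, the replicate number as a block, and each array left out. The labels state no pairing of same-numbered samples, so the numbers were not taken as pairs. Same-numbered arrays deviated together at r = 0.147, -0.099 and 0.027, and arrays of unlike number at -0.216 to 0.183. With 3 arrays per group these values cannot decide whether samples were paired.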

Additional observations from a re-analysis of the deposited data

How the results depend on the processing

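Piwil2 was the 1 member higher under every alternative run. The count of members lower, 1 (Tdrd9), became 0 with quantile normalization, cyclic loess normalization and the replicate block, and was 0 to 1 with 1 array left out. Pathway genes higher, 3 as deposited, were 5 with cyclic loess normalization, 1 row per gene and array weights, 4 with quantile normalization and among rows at or above the median level, and 2 with median centring, with the replicate block and with any 1 array left out. Pathway genes lower, 2 as deposited, were 4 with quantile normalization, with 1 row per gene and among rows at or above the median level, and 0 to 2 with 1 array left out. Over all probe sets 1700 were higher and 1065 lower. Leaving out 1 array gave 1071 to 1908 higher and 297 to 896 lower. Lower calls numbered 669 after median centring, 1646 among rows at or above the median level and 556 with the replicate block, beside 1390 higher. Under the block Tdrd9 had an adjusted p of 0.0547, Tex19.1 0.106 and Piwil2 0.0173. The cause of these moves was not tested. With a filter or 1 row per gene the fit, its variance moderation and the adjustment were all rerun on fewer rows. Mael, Asz1, Ddx4 and Piwil4, all near 0, turned sign in some settings without passing. With quantile normalization, cyclic loess normalization and array weights the log2 difference was 0.028, 0.12 and 0.11 for Mael and 0.025, 0.12 and 0.11 for Asz1. With 1 array left out it was -0.19 to 0.19 for Mael, -0.12 to 0.16 for Asz1, -0.033 to 0.18 for Ddx4 and -0.12 to 0.09 for Piwil4. Every member has 1 row, so no other row could be tried. Piwil4 lay below the median level, so that filter gives no value for it. Dim probe sets such as Piwil4 limit what could be seen.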

Other observations

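The nearest measured gene on each side of the 10 members, in the order of the RefSeq annotation, was looked up after the members' values were seen. Of these 20 neighbours 2 passed the threshold, a share close to the 7.78% of all probe sets that passed, so the count says nothing particular of neighbours. With 1 row per gene 1708 of 19938 genes were higher and 1514 lower. Polr3d, an RNA polymerase III subunit next to Piwil2 on chromosome 14, averaged 6.78 in the mutant and 5.47 in wild type (log2 fold change 1.30, limma adjusted p = 0.00217). Slc39a14, on the other side of Piwil2, averaged 4.6 in the mutant and 4.49 in wild type (adjusted p = 0.801). Il31ra, a cytokine receptor next to Ddx4 on chromosome 13, averaged 4.91 in the mutant and 5.91 in wild type (log2 fold change -0.99, adjusted p = 0.0470). Both neighbours of Tdrd9, Atp5mpl (-0.19) and Aspg (0.53), did not pass. Gtsf2, the relative that lies next to Gtsf1 on chromosome 15, averaged 4.79 in the mutant and 5.07 in wild type (adjusted p = 0.733).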
